A study of Mus musculus with 16 samples.

Results

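The epidermal growth factor (EGF) system was followed in mouse mammary gland through 10 of its genes. They were 4 ERBB receptors, namely Egfr, Erbb2, Erbb3 and Erbb4, and 6 of their ligands, namely Egf, Areg, Tgfa, Hbegf, Btc and Nrg1. They were picked by name from the pathway, and each of the 10 matched 1 of the 24187 rows of the deposited table. The 5 further ligands of the family (Ereg, Epgn, Nrg2, Nrg3 and Nrg4) are given beside them.

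ERBB receptors are tyrosine kinases that pair when a ligand binds and then signal through RAS and ERK, PI3-kinase and STAT proteins. Egfr binds Egf, Areg, Tgfa, Hbegf, Btc and others, Erbb3 and Erbb4 bind neuregulins, Erbb2 has no known ligand of its own, and the kinase of Erbb3 is weak, so that Erbb3 signals mainly as a partner. In the mammary gland, amphiregulin from hormone-sensing luminal cells acts on Egfr of the stroma in duct growth, and Erbb4 takes part in the activation of STAT5 in the secretory epithelium. Most ligands are made as membrane proteins that metalloproteases release.

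The glands came from Socs2-Δs mice and from wild-type mice, all labelled C57BL/6 and all at day 13 of pregnancy. Socs2-Δs (Mut) is a line made by CRISPR/Cas9 editing, and Socs2 encodes a cytokine-induced restraint on JAK-STAT signalling. The wild-type mice were bought from a breeder, so source and genotype cannot be told apart. Messenger RNA of whole gland was sequenced in 3 Socs2-Δs and 4 wild-type libraries, and the genotype tag of the 3 Socs2-Δs libraries reads wild type, against their titles and source names, which were followed here. Whether each library came from its own animal, and how many lines the mutant stands for, is not in the labels, so p-values measure only the spread between these samples. Values are FPKM (fragments per kilobase of gene, scaled to library size). How they were scaled is not stated. Library totals on the deposited scale ran from 0.851 of their mean in wild-type library 1 to 1.17 in wild-type library 3, so they were not scaled to equal totals. Socs2 itself had 17.1, 13.9 and 16.0 FPKM in Socs2-Δs glands, against 25.6, 22.1, 24.8 and 16.1 FPKM in wild-type glands.

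Wild-type libraries 3 and 4 stood apart from the other 5. On the first principal component, with 61.6% of the variance, they lay at 57.1 and 77.9, whereas the Socs2-Δs libraries lay at -37.7 to -29.6 and wild-type libraries 1 and 2 at -15.8 and -18.2. Both held RNA of other tissues: Prol1 and Pip, salivary transcripts, had 150 and 114 FPKM in wild-type library 3 and 39.3 and 31.1 FPKM in wild-type library 4, and at most 0.875 FPKM elsewhere. Alb, the liver's albumin, had 80.9 and 1137 FPKM in these libraries and 2.70 to 6.15 FPKM in the other 5. The whole list of 20 liver markers set wild-type library 3 less apart. It summed to 51.6, 123.7 and 203.9 FPKM in Socs2-Δs glands, against 261, 362, 684 and 2729 FPKM in wild-type glands 1 to 4. A list of 10 nuclear and small nucleolar RNAs summed to 592 to 688 FPKM in Socs2-Δs glands, 569 and 545 in wild-type libraries 1 and 2, and 29.2 and 30.3 in wild-type libraries 3 and 4. B cell markers summed to 182.6 FPKM in Socs2-Δs library 2 and 246.4 in wild-type library 4, against 2.94 to 5.27 elsewhere. Reads on genes, as recovered from the steps of the deposited FPKM, came to 21.3 to 24.5 M (mega) per library. Differences are therefore given against all 4 wild-type libraries and against wild-type libraries 1 and 2 alone. The 2 comparisons share the Socs2-Δs libraries and 2 wild-type libraries. Each was tested with limma on log2(FPKM + 1) for the 13392 genes that averaged 1 FPKM or more over the 7 libraries, at a Benjamini-Hochberg adjusted p of 0.05 (two-sided). On this scale changes of low genes are understated, and log2 differences are Socs2-Δs minus wild type.

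Of the 10 genes, 6 passed the filter on low values and 4 (Erbb4, Tgfa, Hbegf and Nrg1) did not, and values for the 4 come from a limma fit of all 21044 rows above 0. Against all 4 wild-type libraries, 0 of the 6 were called by limma, beside 0.0448% of all genes tested, and 1 of the 6 (Erbb3) had an unadjusted p under 0.05, beside 18.1% of all. The groups did not overlap for 0 of the 6, beside 22.5% of all. Against wild-type libraries 1 and 2, 1 of the 6 was called, Areg, which fell, beside 1.94% of all genes called and 0.680% called lower, and 2 of the 6 (Areg and Egf) had an unadjusted p under 0.05, beside 20.1% of all. The groups then did not overlap for 2 of the 6, Areg and Egf, beside 39.9% of all. Egf passed the filter only through its values in the wild-type libraries left out of this comparison. Its place in both counts of 2 therefore rests on a filter that used those libraries. None of the 4 genes under the filter was called in either fit, beside 0.00475% of all rows against 4 wild-type libraries and 0% against wild-type libraries 1 and 2. The median log2 difference of the 6 genes was -0.31 against all 4 wild-type libraries, where that of all genes was -0.00, and -0.03 against libraries 1 and 2, where that of all genes was 0.03.

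**Figure D1:**
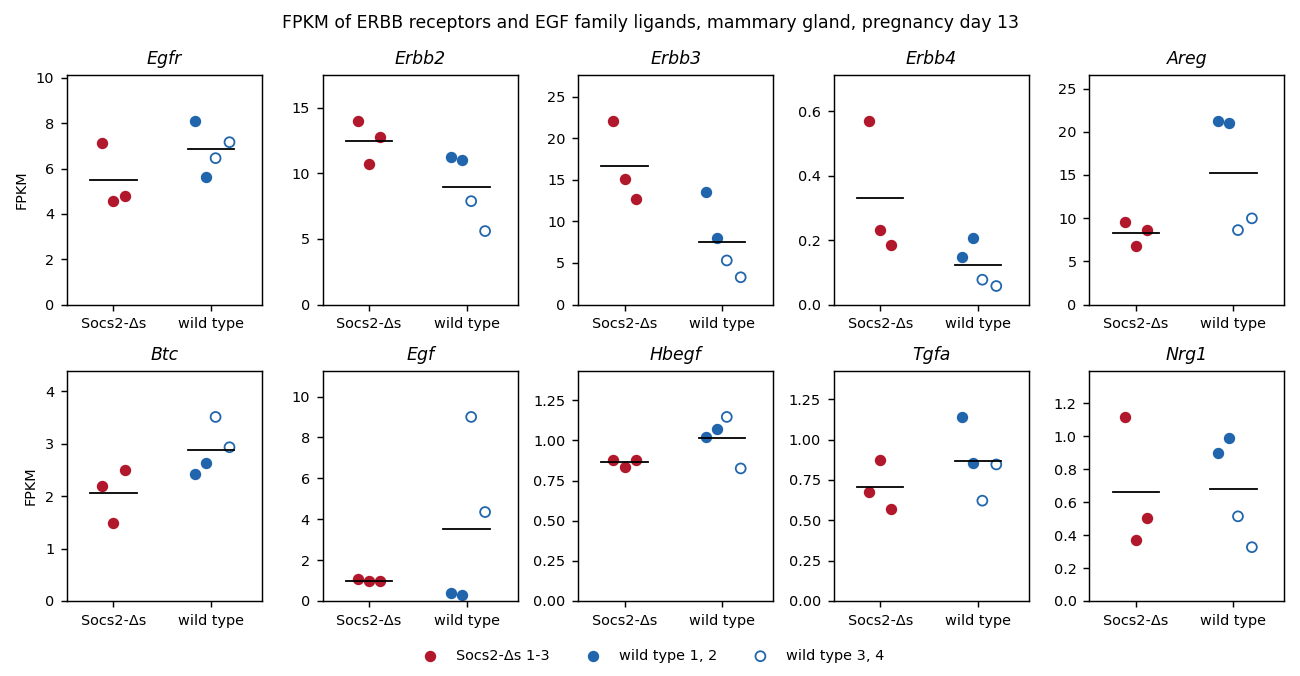
FPKM of the 4 receptors and 6 ligands in each library, with a panel a gene and its own linear axis from 0. Red points are the 3 Socs2-Δs libraries, filled blue points wild-type libraries 1 and 2, open blue points wild-type libraries 3 and 4, and lines are group means. Areg is near 21 FPKM in wild-type libraries 1 and 2 alone, and Egf is highest in wild-type libraries 3 and 4.

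The receptors were led by Erbb3 and Erbb2 in Socs2-Δs glands, and Erbb3 had the largest difference of the 4 on the log2(FPKM + 1) scale, without passing the test. As a ratio of means Erbb4, at few reads, was further apart than Erbb3, at 2.70 against 2.21 with all wild-type libraries and 1.87 against 1.55 with libraries 1 and 2. Erbb3 (Entrez 13867) had 22.1, 15.0 and 12.7 FPKM in Socs2-Δs glands, against 13.5, 7.95, 5.30 and 3.28 FPKM in wild-type glands 1 to 4. Wild-type library 1 lay inside the range of the Socs2-Δs libraries and the other 3 below it. The means were 16.6 ± 4.91 FPKM in Socs2-Δs glands (SD, n = 3) and 7.51 ± 4.44 FPKM in wild-type glands (SD, n = 4). The log2 difference was 1.16 (SE 0.40; limma adjusted p = 0.221), and permuting the library labels in all 35 ways gave an exact two-sided p of 0.0857, where the smallest possible is 0.0286. Against wild-type libraries 1 and 2 it was 0.59 (SE 0.30; adjusted p = 0.337), a smaller difference than with wild-type libraries 3 and 4 included. The reads behind these values were 1103 to 2083 in Socs2-Δs libraries and 269 to 1386 in wild-type libraries.

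Erbb2 (Entrez 13866), the partner that the other receptors prefer, varied less. It had 14.0, 10.7 and 12.8 FPKM in Socs2-Δs glands, against 11.2, 11.0, 7.88 and 5.60 FPKM in wild-type glands. The lowest Socs2-Δs library lay under wild-type libraries 1 and 2, and only wild-type libraries 3 and 4 lay clear of the Socs2-Δs range. The log2 difference was 0.48 (SE 0.24; limma adjusted p = 0.317) with all wild-type libraries and 0.15 (SE 0.13; adjusted p = 0.595) with libraries 1 and 2.

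Egfr (Entrez 13649), the receptor of most of the ligands described here, had 7.14, 4.58 and 4.81 FPKM in Socs2-Δs glands, against 8.12, 5.62, 6.46 and 7.17 FPKM in wild-type glands. The groups overlapped, with Socs2-Δs library 1 among the wild-type values. Its log2 difference was -0.28 in both comparisons (limma adjusted p = 0.418 with 4 wild-type libraries and 0.554 with libraries 1 and 2). Erbb4 (Entrez 13869) was the least abundant receptor. It had 0.572, 0.232 and 0.185 FPKM in Socs2-Δs glands, against 0.147, 0.205, 0.077 and 0.058 FPKM in wild-type glands, from 57, 23 and 17 reads and 16, 21, 7 and 5 reads. Socs2-Δs library 1 was the highest, and the lowest Socs2-Δs library lay under wild-type library 2. The log2 difference was 0.24 (SE 0.10; limma adjusted p = 0.365), and 0.17 (SE 0.14; adjusted p = 0.642) with wild-type libraries 1 and 2.

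The mix of receptors differed in its balance between Erbb3 and Egfr. Egfr made up 15.0 to 16.3% of the summed FPKM of the 4 receptors in Socs2-Δs glands, against 22.7 and 24.6% in wild-type libraries 2 and 1 and 32.8 and 44.5% in wild-type libraries 3 and 4. Erbb3 made up 50.4, 49.2 and 41.7% in Socs2-Δs glands, against 41.0, 32.1, 26.9 and 20.4% in wild-type glands. For both shares the groups did not overlap, for Erbb3 narrowly, at 41.7 against 41.0%. Of all genes tested, 22.5% did not overlap in FPKM, and no such rate was formed for shares. The Erbb3 level over the Egfr level of the same library was 3.10, 3.28 and 2.64 in Socs2-Δs glands, against 1.67, 1.41, 0.821 and 0.458 in wild-type glands. The share of Erbb2 overlapped, at 32.0 to 41.9% in Socs2-Δs glands and 34.0 to 44.4% in wild-type glands. These ratios were formed with the levels known and carry no test.

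**Figure D2:**
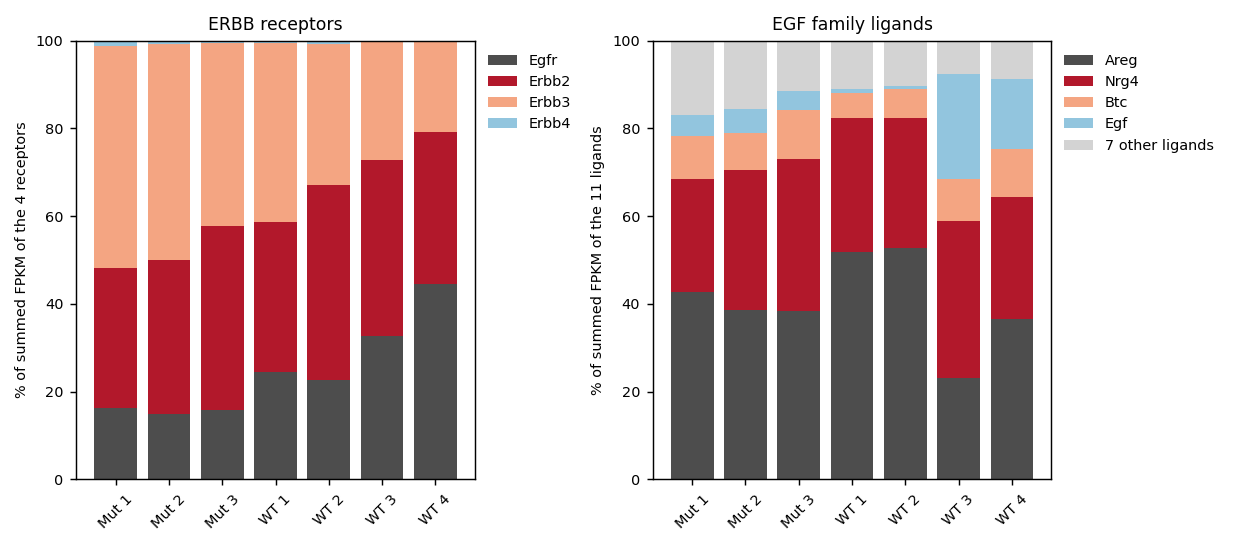
Share in percent of the summed FPKM, a bar a library, for the 4 receptors (left) and the 11 ligands of the family (right). The Egfr share is 15.0 to 16.3% in the 3 Socs2-Δs libraries and 22.7 to 44.5% in the 4 wild-type libraries, and the Egf share is largest in wild-type libraries 3 and 4.

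Marker lists of cell types that carry these receptors are given beside them. The 17 pan-luminal epithelial markers summed to 2496, 2223 and 3241 FPKM in Socs2-Δs glands, against 1696, 2054, 2660 and 1163 in wild-type glands. All 17 had a positive log2 difference, with a median of 0.64 against 4 wild-type libraries and 0.42 against libraries 1 and 2, and 0 of 17 were called by limma in either. Of all genes tested, 49.6% were positive against 4 wild-type libraries and 55.0% against libraries 1 and 2. The 15 alveolar secretory markers, caseins among them, summed to 86236 to 114975 FPKM in Socs2-Δs glands and 5375 to 48730 in wild-type glands, and 7 of 15 were called higher against wild-type libraries 1 and 2, beside 1.26% of all genes, and 0 of 15 against all 4. Fibroblast markers, from cells that carry Egfr, summed to 1699 to 2383 FPKM in Socs2-Δs glands and 2765 to 3554 in wild-type glands, with 15 of 16 lower on the log2 scale, a median of -0.56 and 0 called. None of the markers of these lists was at 0 in all libraries. Their part in the receptor differences was not tested. In RNA of whole gland, fewer cells of a type and less RNA per cell cannot be told apart.

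Areg (Entrez 11839) had the highest mean FPKM of the ligands over the 7 libraries, though Nrg4 and Egf were above it in wild-type library 3. Areg encodes amphiregulin, the oestrogen-induced ligand of the hormone-sensing cells. It had 9.51, 6.82 and 8.65 FPKM in Socs2-Δs glands, against 21.3 and 21.0 FPKM in wild-type libraries 1 and 2 and 8.62 and 9.98 FPKM in wild-type libraries 3 and 4. The wild-type libraries thus fell into a high and a low pair, and the low pair lay within or just above the Socs2-Δs range. The reads were 267, 190 and 224 in Socs2-Δs libraries and 651, 605, 220 and 244 in wild-type libraries. Against libraries 1 and 2 Areg fell, with a ratio of means of 0.394 and a log2 difference of -1.26 (SE 0.15; limma adjusted p = 0.031), and it was lower in 3 of 3 Socs2-Δs libraries. Against all 4 the ratio was 0.547 and the log2 difference -0.70 (SE 0.34; limma adjusted p = 0.299), and the exact two-sided permutation test gave p = 0.200. The call did not hold when any 1 of the 5 libraries was left out (limma adjusted p = 0.0733 to 0.234), nor in a fit of all 7 with a term for wild-type libraries 3 and 4 (-1.26; limma adjusted p = 0.095).

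The level of Areg did not follow the summed level of hormone-sensing markers across wild-type libraries. The 13 markers, Esr1, Pgr and Prlr among them, summed to 354, 351 and 333 FPKM in Socs2-Δs glands, against 559 and 602 in wild-type libraries 1 and 2 and 1004 and 1095 in wild-type libraries 3 and 4. Of the 12 tested, 12 were negative on the log2 scale against 4 wild-type libraries (median -0.50) and 11 against libraries 1 and 2 (median -0.46), with 0 called by limma in either and 0 at 0 in all libraries. Among all genes tested, 49.6% and 55.0% were positive in these comparisons. A sum is weighted to the most abundant markers, and the list median was alike in both comparisons. The higher sum in wild-type libraries 3 and 4 is therefore not a trait of each marker. The part of these cells in the Areg difference was not tested.

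The promoter of Areg is shown because Areg was the 1 member called, that of Btc because it is the next gene on the chromosome and had another pattern of levels, and that of Egf because its level turned on wild-type libraries 3 and 4. Windows run from 250 bases before to 50 after the start of the gene, 5′ to 3′ on the gene's strand, from RefSeq on GRCm38.p6. They are Areg on chr5:91139349-91139648 (+), Btc on chr5:91402945-91403244 (-) and Egf on chr3:129755273-129755572 (-). For Egf the window at the highest chromosome position at hand was taken. Capitals in Areg mark a cyclic AMP response element, TGACGTCA, that starts at position -61 from the start, and a TATA box, TATAAA, at -31.
Areg: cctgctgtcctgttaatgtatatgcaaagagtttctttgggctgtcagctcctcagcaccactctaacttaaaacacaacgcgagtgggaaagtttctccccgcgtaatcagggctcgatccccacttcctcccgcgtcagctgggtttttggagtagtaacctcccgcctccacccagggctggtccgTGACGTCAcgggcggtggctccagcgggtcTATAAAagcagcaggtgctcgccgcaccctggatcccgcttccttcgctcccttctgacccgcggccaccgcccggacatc
Btc: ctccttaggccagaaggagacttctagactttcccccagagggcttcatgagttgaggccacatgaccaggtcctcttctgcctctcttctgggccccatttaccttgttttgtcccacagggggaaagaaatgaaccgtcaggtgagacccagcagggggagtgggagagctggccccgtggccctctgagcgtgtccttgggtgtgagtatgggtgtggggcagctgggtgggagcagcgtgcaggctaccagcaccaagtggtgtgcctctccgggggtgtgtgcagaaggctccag
Egf: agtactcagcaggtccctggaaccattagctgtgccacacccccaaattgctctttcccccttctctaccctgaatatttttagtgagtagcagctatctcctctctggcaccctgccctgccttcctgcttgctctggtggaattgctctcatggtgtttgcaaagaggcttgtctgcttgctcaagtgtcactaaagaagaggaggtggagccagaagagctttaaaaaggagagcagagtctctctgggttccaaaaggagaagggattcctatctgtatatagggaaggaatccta
RefSeq windows were at hand for 7 of the 10 genes (8 windows). TGACGTCA, read on both strands, was in 1.79% of all 32851 windows and among the members in that of Areg alone. TATAAA, also read on both strands, was in 13.6% of all and again in Areg alone among the members. The letters TTCNNNGAA of the STAT-type site were in 8.30% of all windows and in 0 of the 8. The motifs do not overlap in Areg. Such matches describe these windows and show no binding.

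Egf (Entrez 13645) had opposite directions in the 2 comparisons. Its product is abundant in mouse salivary gland and present in milk. It had 1.06, 0.968 and 0.963 FPKM in Socs2-Δs glands, against 0.371 and 0.289 FPKM in wild-type libraries 1 and 2 and 9.00 and 4.35 FPKM in wild-type libraries 3 and 4. The Socs2-Δs libraries lay close together, above the first wild-type pair and below the second. Against all 4 wild-type libraries the log2 difference was -0.64 (SE 0.70; limma adjusted p = 0.601; exact permutation p = 0.514). Against libraries 1 and 2 it was 0.59 (SE 0.13; limma adjusted p = 0.080), a ratio of means of 3.02 that did not pass. Egf was among the genes tested there only through its values in wild-type libraries 3 and 4. The reads were 118, 107 and 99 in Socs2-Δs libraries, against 45 and 33 in wild-type libraries 1 and 2 and 912 and 422 in wild-type libraries 3 and 4.

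The high Egf values stood in the libraries that held salivary RNA. The whole list of 26 salivary markers summed to 52.4, 57.8 and 53.3 FPKM in Socs2-Δs glands, against 106.9 and 89.2 in wild-type libraries 1 and 2 and 1046 and 447 in wild-type libraries 3 and 4. The groups did not overlap, and 2 markers (Ren1 and Klk1b26) were at 0 in all libraries. Amylase Amy1, named after its values were seen, made up most of the sum outside wild-type libraries 3 and 4. It had 32.6, 36.3 and 28.2 FPKM in Socs2-Δs glands, against 82.0, 64.6, 103.2 and 151.8 FPKM in wild-type glands. Of 19 markers tested it was the 1 called, lower against wild-type libraries 1 and 2, beside 0.680% of all genes called lower. Its log2 difference there was -1.15 (limma adjusted p = 0.041), with -1.54 (adjusted p = 0.116) against all 4. A set of 14 salivary genes with at least 3 FPKM in both wild-type libraries 3 and 4 and under 1 FPKM in the other 5 summed to 2.99, 3.29 and 2.18 FPKM in Socs2-Δs glands, 5.04 and 2.02 in wild-type libraries 1 and 2, and 909 and 278 in wild-type libraries 3 and 4. The rule that chose these 14 fixes that contrast, which is given as a description. Egf was 27.3 and 13.2 times the mean of wild-type libraries 1 and 2 there. Its ratio of library 3 to library 4 was 2.07, and that of the 14 genes had a median of 3.20 and a range of 1.78 to 3.95. The part of salivary RNA in these values was not tested.

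**Figure D3:**
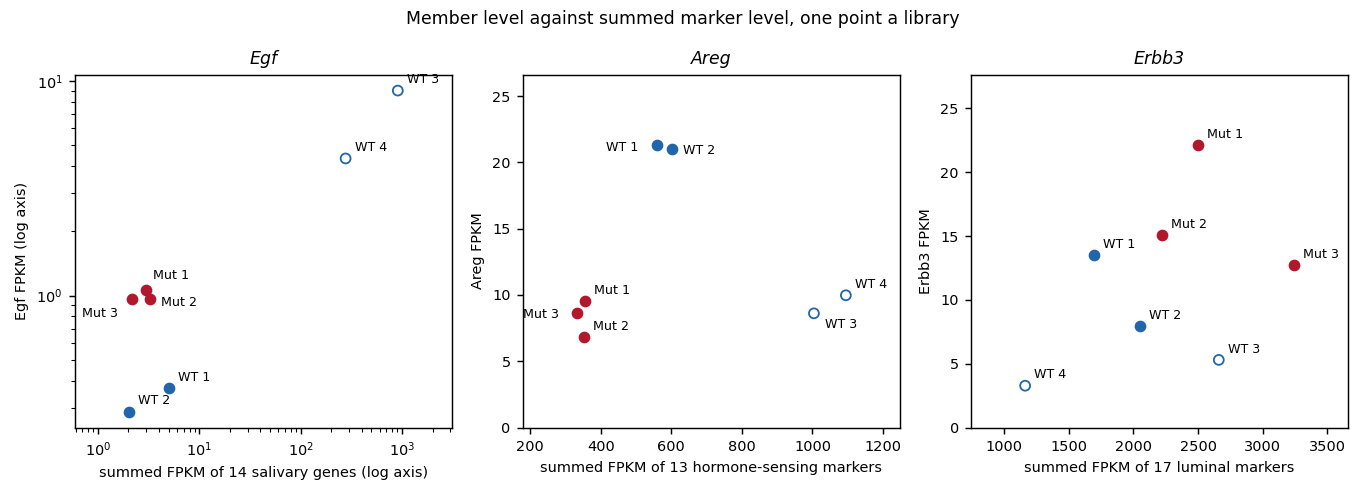
FPKM of Egf, Areg and Erbb3 in each library (vertical axes) against the summed FPKM of 14 salivary genes, 13 hormone-sensing markers and 17 luminal markers (horizontal axes). Both axes of the Egf panel are logarithmic. Red points are Socs2-Δs (Mut) libraries, filled blue points wild-type (WT) libraries 1 and 2, and open blue points wild-type libraries 3 and 4. Egf is high in wild-type libraries 3 and 4, for which the 14 salivary genes were chosen as high, while Areg is low there and the hormone-sensing sum is high.

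The other Egfr ligands were low and differed little. Btc (Entrez 12223), betacellulin, which binds Egfr and Erbb4, had 2.20, 1.48 and 2.49 FPKM in Socs2-Δs glands, against 2.41, 2.63, 3.51 and 2.93 FPKM in wild-type glands. The groups overlapped at Socs2-Δs library 3 and wild-type library 1, and the log2 difference was -0.35 (SE 0.19; limma adjusted p = 0.337) and -0.22 (SE 0.18; adjusted p = 0.551) with wild-type libraries 1 and 2. Hbegf (Entrez 15200), the heparin-binding ligand, was the steadiest member. It had 0.881, 0.833 and 0.877 FPKM in Socs2-Δs glands, against 1.02, 1.07, 1.15 and 0.826 FPKM in wild-type glands. Wild-type library 4 alone lay below the Socs2-Δs range, and the log2 difference was -0.11 (limma adjusted p = 0.583). With wild-type libraries 1 and 2 the groups did not overlap, beside 39.9% of the genes that passed the filter, at a difference of -0.13 (SE 0.06; limma adjusted p = 0.369). Tgfa (Entrez 21802), made by epithelium and macrophages, had 0.676, 0.875 and 0.569 FPKM in Socs2-Δs glands, against 1.14, 0.856, 0.622 and 0.846 FPKM in wild-type glands. Its groups overlapped, with a log2 difference of -0.13 (limma adjusted p = 0.620) and of -0.23 (adjusted p = 0.435) with wild-type libraries 1 and 2.

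Of the neuregulins, Nrg4 was the most abundant. Nrg1 (Entrez 211323), a ligand of Erbb3 and Erbb4 known from basal cells and nerve, had 1.12, 0.368 and 0.506 FPKM in Socs2-Δs glands, against 0.895, 0.990, 0.514 and 0.326 FPKM in wild-type glands. Socs2-Δs library 1 was the highest of all 7 and library 2 among the lowest, and the log2 difference was -0.02 (SE 0.20; limma adjusted p = 0.958), and -0.25 (SE 0.21; adjusted p = 0.642) with wild-type libraries 1 and 2. Basal and myoepithelial markers summed to 1227 to 1455 FPKM in Socs2-Δs glands and 791 to 1484 in wild-type glands, and Schwann cell markers to 150 to 171 FPKM in Socs2-Δs glands and 81.7 to 210 FPKM in wild-type glands. Their part in the Nrg1 values was not tested. Nrg4, a ligand of Erbb4 known from adipose tissue, was in the mean over 7 libraries more abundant than each other ligand but Areg. It had 5.78, 5.67 and 7.80 FPKM in Socs2-Δs glands, against 12.6, 11.9, 13.5 and 7.58 FPKM in wild-type glands. Only wild-type library 4 lay in the Socs2-Δs range, and the log2 difference was -0.72 (SE 0.22; limma adjusted p = 0.186) and -0.85 (SE 0.15; adjusted p = 0.062) with wild-type libraries 1 and 2. The 20 adipocyte markers summed to 6185 to 9218 FPKM in Socs2-Δs glands and 16986 to 36660 in wild-type glands, and their part in the Nrg4 difference was not tested. Nrg2 had 0.905, 0.563 and 0.474 FPKM in Socs2-Δs glands, against 1.26, 1.18, 0.315 and 0.329 FPKM in wild-type glands, with its high values in wild-type libraries 1 and 2 (log2 difference -0.06 and -0.44; limma adjusted p = 0.902 and 0.240). Ereg, Epgn and Nrg3 had at most 0.150 FPKM in each library.

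**Figure D4:**
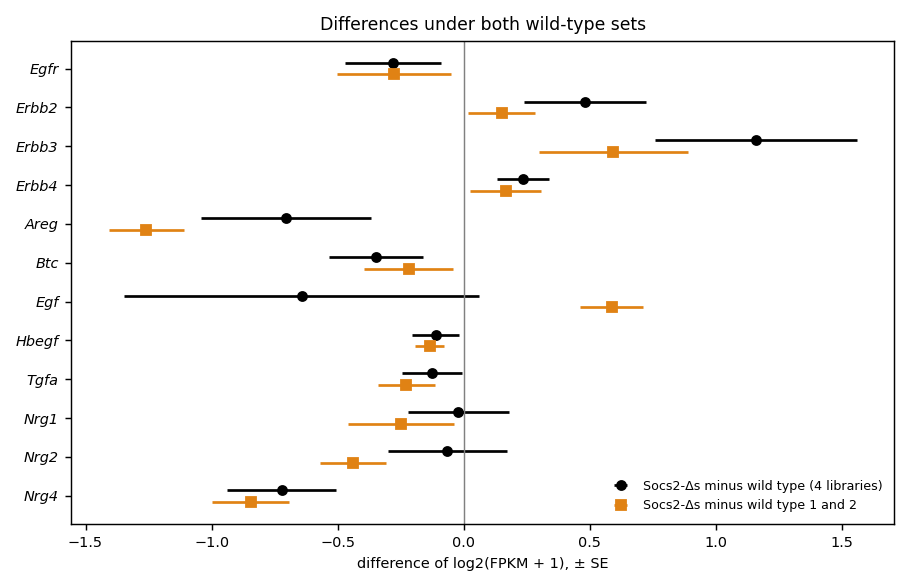
Difference of log2(FPKM + 1), Socs2-Δs minus wild type, with its limma SE as a bar, for the 10 genes, Nrg2 and Nrg4. Black circles use all 4 wild-type libraries and orange squares wild-type libraries 1 and 2. Areg is at -0.70 and -1.26, and Egf lies on opposite sides of 0, at -0.64 and 0.59.

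Summed over the 11 ligands of the family, the level was 22.3, 17.7 and 22.5 FPKM in Socs2-Δs glands, against 41.2, 39.9, 37.4 and 27.2 FPKM in wild-type glands. The groups did not overlap, as for 22.5% of all single genes tested, and the sum carries no test. In wild-type libraries 3 and 4 the sum includes 9.00 and 4.35 FPKM of Egf. Areg made up 42.6, 38.5 and 38.4% of it in Socs2-Δs glands, against 51.7 and 52.7% in wild-type libraries 1 and 2 and 23.0 and 36.6% in wild-type libraries 3 and 4. Egf made up 4.28 to 5.47% in Socs2-Δs glands, against 0.901 and 0.724% in wild-type libraries 1 and 2 and 24.1 and 16.0% in wild-type libraries 3 and 4. The share of Nrg4 was alike in range, at 25.9 to 34.7% in Socs2-Δs glands and 27.8 to 36.0% in wild-type glands.

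FPKM is scaled to gene length, so levels can be ordered across genes. In Socs2-Δs glands the order of mean FPKM was Erbb3, Erbb2 (12.5 ± 1.68), Areg (8.32 ± 1.37), Nrg4 (6.42 ± 1.20), Egfr (5.51 ± 1.42), Btc (2.06 ± 0.521), Egf (0.997 ± 0.0541), Hbegf (0.864 ± 0.0264), Tgfa (0.707 ± 0.155), Nrg1 (0.664 ± 0.398), Nrg2 and Erbb4 (SD, n = 3). Neighbours whose libraries overlapped were Erbb3 and Erbb2, Areg and Nrg4, Nrg4 and Egfr, Hbegf and Tgfa, Tgfa and Nrg1, Nrg1 and Nrg2, and Nrg2 and Erbb4. In wild-type glands the order began with Areg (15.2 ± 6.87), Nrg4 (11.4 ± 2.61), Erbb2 (8.92 ± 2.69), Erbb3 and Egfr (6.84 ± 1.06), all of which overlapped their neighbours (SD, n = 4). Egf (3.50 ± 4.13), Btc (2.87 ± 0.475), Hbegf (1.02 ± 0.137), Tgfa (0.866 ± 0.213), Nrg2, Nrg1 and Erbb4 followed. The place of Egf in this order rested on wild-type libraries 3 and 4, where it had 9.00 and 4.35 FPKM. In wild-type libraries 1 and 2 it had 0.371 and 0.289 FPKM. There Egf lay below Btc, Hbegf, Tgfa, Nrg2 and Nrg1 and above Erbb4.

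The wider pathway was described by 5 lists of genes: those that release ligands, those that carry the receptor signal, those that restrain or sort receptors, the RAS-ERK core, and transcripts that ERK induces. Against all 4 wild-type libraries 0 of their 88 tested genes were called by limma, beside 0.0448% of all. Against wild-type libraries 1 and 2, 4 of the 88 were called, namely Stat5a, Dusp4, Etv4 and Etv5, beside 1.94% of all. For the counts of unadjusted p under 0.05 given next, the shares over all genes were 18.1% against 4 wild-type libraries and 20.1% against libraries 1 and 2, and values follow in that order of comparison.

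Of the 11 sheddases and iRhoms, which free ligands from the membrane, 0 were called in either comparison and 2 and 4 had an unadjusted p under 0.05. Their median log2 difference was 0.02 against 4 wild-type libraries and -0.23 against libraries 1 and 2. Rhbdf2, which brings the sheddase Adam17 to the cell surface, had 18.1, 16.9 and 23.4 FPKM in Socs2-Δs glands, against 11.9, 12.1, 7.05 and 6.81 FPKM in wild-type glands (log2 difference 1.00 and 0.64; limma adjusted p = 0.158 and 0.102). Timp3, an inhibitor of Adam17, had 35.8, 33.9 and 33.6 FPKM in Socs2-Δs glands, against 80.4, 44.1, 66.4 and 74.4 FPKM in wild-type glands (-0.89 and -0.77; limma adjusted p = 0.159 and 0.173). Neither gene's groups overlapped. Against all 4 wild-type libraries this held for 2 of the 11 genes, beside 22.5% of all genes tested. Adam9 and Adam12, metalloproteases, were at -0.39 and -0.32 with all 4 wild-type libraries (limma adjusted p = 0.350 and 0.333) and at -0.26 and -0.48 with libraries 1 and 2 (adjusted p = 0.460 and 0.125).

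Of 22 tested adaptors and effectors, Stat5a was called against wild-type libraries 1 and 2 and rose, by 0.93 on the log2 scale (SE 0.13; limma adjusted p = 0.040), while against all 4 it was at 1.42 (adjusted p = 0.143). Stat5a, which ERBB and cytokine receptors activate, had 105, 88.9 and 103.8 FPKM in Socs2-Δs glands, against 50.1, 53.0, 30.8 and 20.9 FPKM in wild-type glands. The list's median was 0.02 against 4 wild-type libraries and 0.08 against libraries 1 and 2, and 3 and 4 of the 22 had an unadjusted p under 0.05. Its close copy Stat5b was at 0.83 and 0.61 (limma adjusted p = 0.143 and 0.083), Stat3 at 0.53 and 0.19 (0.289 and 0.500), and Eps8, an Egfr substrate, at -0.63 and -0.54 (0.153 and 0.111). Stat5a and Stat5b are near-identical in sequence and can share reads.

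Of 26 negative regulators and traffic genes 0 were called, with medians of 0.04 and 0.11, and 8 and 10 had an unadjusted p under 0.05. Muc4, a membrane mucin that binds Erbb2, had 20.9, 12.2 and 11.7 FPKM in Socs2-Δs glands, against 3.58, 4.59, 2.17 and 0.396 FPKM in wild-type glands. Its groups did not overlap, as for 9 of the 26 against all 4 wild-type libraries, beside 22.5% of all genes tested. The log2 difference of Muc4 was 2.24 (limma adjusted p = 0.126) and 1.61 (0.053) with wild-type libraries 1 and 2. Muc1, another mucin that binds ERBB receptors, was at 1.37 and 0.91 (limma adjusted p = 0.183 and 0.078). Lrig1, which promotes the loss of ERBB receptors, was at 0.45 and 0.37 (limma adjusted p = 0.198 and 0.162), and Spred1, a RAS inhibitor, at -0.70 and -0.48 (0.167 and 0.084). Of 13 RAS-ERK genes 0 were called, 0 had an unadjusted p under 0.05, and the medians were -0.05 and 0.02. Araf was at 0.53 and 0.15, Braf at 0.17 and 0.13, and Hras at -0.24 and 0.01 (limma adjusted p = 0.290 to 0.525 with 4 wild-type libraries and 0.475 to 0.991 with libraries 1 and 2).

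Of 18 tested ERK-induced transcripts, 1 was called higher and 2 lower against wild-type libraries 1 and 2, beside 1.26% and 0.680% of all genes. An unadjusted p under 0.05 was reached by 7 and 10 of the 18. Dusp4, a phosphatase that acts on ERK, had 41.6, 42.0 and 34.8 FPKM in Socs2-Δs glands, against 18.1, 14.3, 14.5 and 9.09 FPKM in wild-type glands. It rose by 1.24 (SE 0.15; limma adjusted p = 0.033), and was at 1.46 (adjusted p = 0.085) with all 4. Etv4, an ETS transcription factor, had 2.32, 2.08 and 1.78 FPKM in Socs2-Δs glands, against 8.28 and 8.05 FPKM in wild-type libraries 1 and 2 and 1.49 and 3.32 FPKM in wild-type libraries 3 and 4. Etv5, its relative, had 8.95, 7.76 and 7.42 FPKM in Socs2-Δs glands, against 19.1 and 15.1 FPKM in wild-type libraries 1 and 2 and 8.38 and 9.58 FPKM in wild-type libraries 3 and 4. Both fell against libraries 1 and 2, by 1.59 (limma adjusted p = 0.016) and 0.99 (0.041), and were at -0.84 (0.336) and -0.57 (0.302) against all 4. Both had, as Areg did, their high values in these 2 libraries alone. Egr2 and Fos, immediate early factors, were at -0.93 and -0.72 with 4 wild-type libraries, and Phlda1 at 1.22 (limma adjusted p = 0.180 to 0.227). With libraries 1 and 2 they were at -1.19, -0.80 and 0.64 (limma adjusted p = 0.082 to 0.134). The list's medians were -0.34 and -0.47, beside -0.00 and 0.03 for all genes, and the list moved in both directions. The calls of Stat5a, Dusp4 and Etv5 were lost when any 1 of the 5 libraries was left out, and that of Etv4 held only without Socs2-Δs library 3 (limma adjusted p = 0.041). In the fit with a term for wild-type libraries 3 and 4 none of the 4 was called (limma adjusted p = 0.114 to 0.165).

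**Figure D5:**
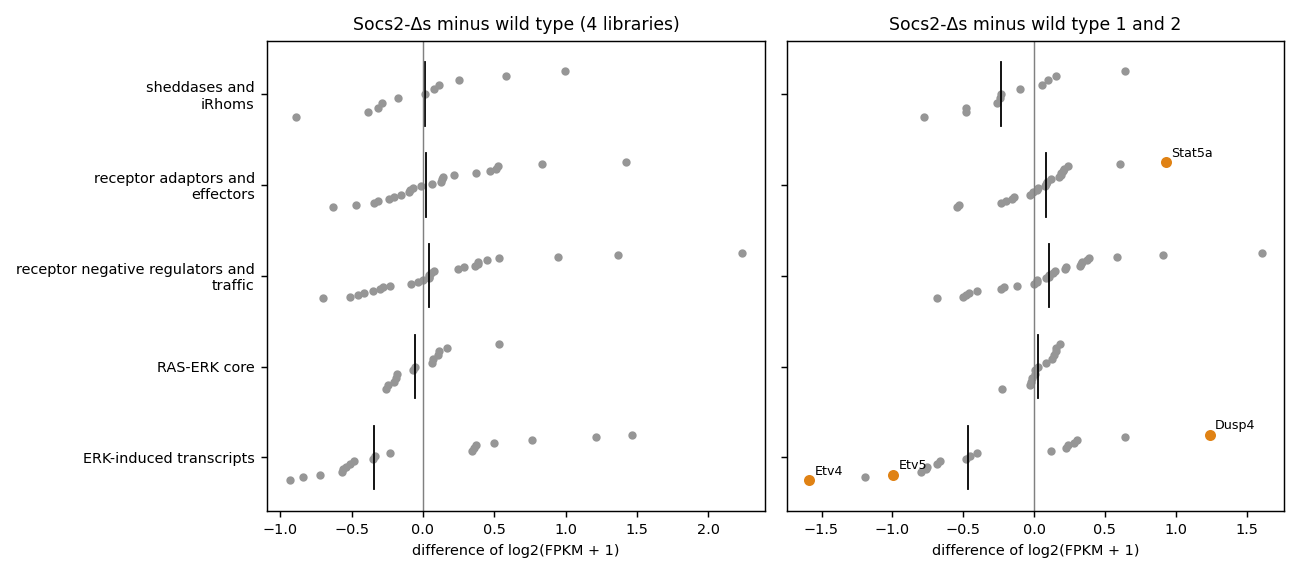
Difference of log2(FPKM + 1), Socs2-Δs minus wild type, for each tested gene of the 5 pathway lists, against all 4 wild-type libraries (left) and against libraries 1 and 2 (right). Points are stacked by size within a list, black lines are list medians, and orange points, with names, are genes called by limma. The named genes are Stat5a and Dusp4 to the right of 0 and Etv4 and Etv5 to the left.

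The genes with the most similar pattern over the 7 libraries were found by Pearson correlation of log2(FPKM + 1), among up to 12674 genes. The points share libraries and their depth, so these are descriptions. For Areg they were Zfp9 (r = 0.99), Tnfaip2 (0.99) and Rab6b (0.98), and Rab6b had 0.487, 0.373 and 0.489 FPKM in Socs2-Δs glands, against 3.65 and 2.76 FPKM in wild-type libraries 1 and 2 and 0.347 and 0.580 FPKM in wild-type libraries 3 and 4. For Erbb3 they were Gpr137c (0.99), Shank2 (0.99) and Sorbs2 (0.99), for Erbb2 Clmn (1.00), Ggt1 (0.99) and Tmem2 (0.99), for Egfr Tmem231 (0.98), Hgf (0.96) and Rbms1 (0.95), and for Erbb4 Zfp507 (0.96), Shprh (0.96) and Dgcr2 (0.96). For Egf they were Exoc5 (1.00), Gnai3 (0.99) and Mmgt1 (0.99), which over the 5 libraries without wild-type libraries 3 and 4 correlated with it at 0.96, 0.92 and 0.97. For Nrg1 they were Igdcc4 (0.98), the basal keratin Krt5 (0.97) and Ism1 (0.96), for Btc Dpp7 (0.99), Tmsb15b1 (0.98) and Lmo4 (0.98), for Hbegf Zfp947 (0.97), Cenpk (0.97) and Postn (0.97), and for Tgfa Cyp27a1 (0.96), Endou (0.95) and Micu3 (0.95).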

How the data were processed

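Poly(A) RNA was sequenced after TruSeq library preparation, per the labels' protocols. The authors deposited FPKM per gene. Per the submitters' processing notes, the build was mm9 and the tools were STAR, Bowtie2, CASAVA and DESeq2, with no version or step named. The gene annotation used is not given in the sources used here. Libraries were grouped by title. Names of 39 rows were repaired from Entrez IDs. Reads were taken from the steps of the deposited FPKM (whole within 0.02, solved for 21044 rows), up to a factor common to a gene.

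The deposited FPKM were turned into log2(FPKM + 1), a pseudocount of 1, and fitted in limma 3.58.1 (R 4.3.3; empirical Bayes with trend), with p adjusted over all 13392 genes that averaged 1 FPKM or more. Scripts were tested on simulated data. The members, lists, rules and comparisons were chosen with earlier results of these data known. Named genes were the members, other ligands, up to 4 genes of smallest p per pathway list, genes called, and 3 genes of highest correlation per member; 1 gene the rule named is not reported here. The 14 salivary genes and the shares were chosen after values were seen. Of the list genes 1 was not found. The alternatives were other pseudocounts, filters and scalings, array weights, a library term, a replicate block and left-out libraries. The other 9 samples (ChIP-seq, DNase-seq) were not used here. Overlapping genes and close copies can share reads, since use of strand is not stated. RefSeq sequences are on GRCm38.p6, another build than that of the reads.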

Additional observations from a re-analysis of the deposited data

How the results depend on the processing

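Against all 4 wild-type libraries 6 genes were called. The count was 1 with a pseudocount of 0.1, 18 with 5, 1 without a filter, 0 at a mean of at least 5 FPKM, 28 after quantile normalization, 260 without wild-type libraries 3 and 4, 0 with a term for them, 1371 with array weights, and 0 to 31 with 1 library left out. The number of members called was 0, and 1 (Areg) with array weights or without wild-type libraries 3 and 4. Against wild-type libraries 1 and 2, 260 genes and 1 member were called, 0 and 0 without a filter, and 0 to 42 genes and 0 members with 1 library left out, where a lone wild-type library is assumed to vary like the others. An alternative chosen after seeing the data, a mean of at least 1 FPKM over these 5 libraries, called 284 genes. It tested 5 members, without Egf, and called 1.

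The labels state no pairing. Deviations of same-numbered Socs2-Δs and wild-type libraries correlated at 0.35, -0.10 and 0.28, and those of other pairs at -0.20 to 0.34. These values do not settle whether the replicate numbers mark pairs. With the number as a replicate block, 0 genes were called against all 4 wild-type libraries, and 110 genes and 0 members against libraries 1 and 2.

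The direction of 6 genes that were not called depended on the setting, and the cause was not tested. Egf was at 0.59 without wild-type libraries 3 and 4 and with a term for them, and at 0.42 with array weights. Hras was at 0.0066 in both of the first 2 settings, and against wild-type libraries 1 and 2 at -0.022 with median-of-ratios factors, -0.049 after quantile normalization and -0.13 with the replicate block. Nrg3 was at -0.00046 after quantile normalization. With 1 library left out the range was -0.21 to 0.11 for Nrg1 and -0.19 to 0.069 for Nrg2, and against libraries 1 and 2 it was -0.060 to 0.0053 for Ereg, -0.010 to 0.016 for Nrg3 and -0.13 to 0.13 for Hras. Of 1059 results of 37 named genes under alternatives, 980 kept direction and side of the threshold, 27 newly passed, 32 no longer passed and 20 changed direction. With 3 against 4 libraries and few reads for Erbb4, Ereg, Epgn and Nrg3, small differences of these low genes were not detectable at this depth.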

Other observations

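Areg lies on mouse chromosome 5 in a row of EGF family genes, in the order Mthfd2l, Epgn, Ereg, Areg, Btc and Parm1 (RefSeq on GRCm38.p6). The genes at the ends of this row did not share the high Areg level of wild-type libraries 1 and 2. Mthfd2l, a mitochondrial folate enzyme, had 4.05, 2.68 and 4.33 FPKM in Socs2-Δs glands, against 3.16, 3.12, 4.10 and 2.97 FPKM in wild-type glands. Parm1 had 8.93, 4.37 and 4.60 FPKM in Socs2-Δs glands, against 3.95, 6.05, 7.16 and 4.59 FPKM in wild-type glands. Both overlapped between the groups. The Areg level over the Btc level of the same library was 4.33, 4.60 and 3.47 in Socs2-Δs glands, against 8.82 and 7.97 in wild-type libraries 1 and 2 and 2.45 and 3.40 in wild-type libraries 3 and 4.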
